A study of Mus musculus and Rattus norvegicus with 8 samples.

Results

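The genes described here encode the constitutive proteasome and the ubiquitin-conjugating enzymes, measured in lungs of ventilated and control rats and mice. They were chosen by name: every probe set whose only gene symbol starts with Psma, Psmb, Psmc, Psmd or Ube2, apart from the immunoproteasome genes Psmb8, Psmb9 and Psmb10. The naming rule uses no measured value. The rat array held 55 such probe sets of 8740, for 33 genes of 4736, and the mouse array held 74 of 12422, for 56 genes of 8251. Of the 33 rat genes, 22 were proteasome genes and 11 were Ube2 genes. Of the 56 mouse genes, 34 were proteasome genes, 21 were Ube2 genes, and Psmc3ip, a meiotic recombination factor, shared a prefix and nothing else with the list. The proteasome genes are the subunits plus the assembly chaperones of the cap: Psmd5, Psmd9 and Psmd10 in the mouse and Psmd10 in the rat.

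The proteasome is the protease that degrades most ubiquitin-tagged proteins of the cell. Its core is a barrel of stacked rings, in which alpha subunits (Psma genes) gate the entrance and beta subunits (Psmb genes) line the chamber and carry the proteolytic sites. A cap recognises the tagged protein through its non-ATPase subunits (Psmd genes) and unfolds it with a ring of ATPases (Psmc genes). The tag is put on by an activating enzyme (E1), a conjugating enzyme (E2, the Ube2 genes) and a ligase (E3) acting in turn.

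The series holds 8 arrays, 2 in each of 4 groups, all from lung RNA. The ventilated rats were male Wistar animals, 8 weeks old, that received a tidal volume of 12 ml/kg of room air for 5 hours. The control rats were of the same strain, sex and age and breathed spontaneously through the same kind of tracheal cannula. The ventilated mice were male C57BL6 animals, 7 to 8 weeks old, ventilated at 17 ml/kg (6 hours) or at 35 ml/kg (2 hours), and the labels do not tie either regimen to an array. The control mice were of the same strain, sex and age and breathed spontaneously, and the labels mention no cannula for them. The labels name no transgene, and whether an array holds 1 animal or a pool is not stated. The arrays read RNA of lung tissue, in which fewer cells of a type and less RNA per cell cannot be told apart.

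Values are normalised signals in arbitrary units, and a difference is the ventilated minus the control mean of log2 signals, with the standard error (SE) of limma's moderated fit and n = 2 arrays per group throughout. A gene was called at a Benjamini-Hochberg adjusted p under 0.05 over all genes tested in that species. Low signals were raised to a floor, the 25th percentile of the 4 arrays (11.5 in the rat, 14.2 in the mouse), and genes whose mean lay under it were not tested. That left 31 rat members (22 proteasome genes and 9 Ube2 genes) of 3876 genes tested, and 53 mouse members (33 and 20) of 6888. The members under the floor were Ube2m and Ube2d2b in the rat and Ube2t, Psmc3ip and Psmd2 in the mouse.

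Lung epithelium markers were measured on every array, and in both species other marker lists differed between arrays. In the rat, the summed signal of the 8 lung epithelium markers tested was 14043 and 15477 on the ventilated arrays against 17285 and 17700 on the control arrays, and 8 of 8 had a negative difference, with Nkx2-1 (-1.33) and Sftpc (-0.73) called lower. The summed signal of the 11 T and NK cell markers was 7490 and 8287 on ventilated arrays against 902 and 774 on control arrays, with 10 of 11 called higher. The 5 adipose markers summed to 2623 and 2722 on ventilated arrays against 934 and 922 on controls, with 4 of 5 called higher. The 7 markers of cycling cells summed to 1605 and 1407 on ventilated arrays against 978 and 921 on controls, with 7 of 7 higher on both ventilated arrays and 1 called. The 9 heart and skeletal muscle markers summed to 2968 and 2812 on ventilated arrays against 1959 and 1897 on controls, with 8 of 9 higher on both ventilated arrays and 2 called. The 5 liver markers summed to 938 and 951 on ventilated arrays against 535 and 580.4 on controls, with 4 of 5 higher on both and 2 called. The 6 neutrophil markers summed to 5283 and 4855 on ventilated arrays against 3726 and 3821 on controls, with 4 of 6 higher on both and 1 called, and the 3 macrophage markers to 1666 and 2507 on ventilated arrays against 3317 and 3470 on controls, with 0 called. Of all rat genes tested, 2.48% were called higher and 3.3% lower, and 27.8% had both ventilated arrays above both controls. The part of these lists in the results below was not tested. In the mouse, the 10 neutrophil markers summed to 9587 on ventilated array 1 and 1987 on ventilated array 2, against 1084 and 2160 on the control arrays, so the 2 ventilated arrays stood apart from each other. The 2 mouse controls differed as well: the 9 heart and skeletal muscle markers summed to 2607 on control array 1 and 5285 on control array 2. On ventilated arrays 1 and 2 that sum was 2706 and 2037. Replicate arrays correlated at 0.977 (ventilated) and 0.967 (control) in the rat and at 0.908 (ventilated) and 0.935 (control) in the mouse (Pearson's r of log2 signals across the genes tested), and the highest mouse value, 0.963, joined ventilated array 2 and control array 1.

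In the rat, nearly all genes of the proteasome core gave higher signals on both ventilated arrays, although no single subunit passed the test. The 11 core genes tested all had positive differences, between 0.21 and 0.65, where 49.3% of all genes did. Their median was 0.41, against -0.01 over all 3876 genes. In 10 of the 11, both ventilated arrays lay above both controls, whereas 27.8% of all genes tested did so. The 9 Ube2 genes showed no such common direction, with a median of -0.15. At an adjusted p under 0.05, 0 of 31 members were called, beside 2.48% of all rat genes called higher and 3.3% called lower. At the looser adjusted p under 0.10, 8 of 31 members were called higher and 0 lower, against 6.27% and 6.09% of all genes, and 7 of the 8 were core subunits. At an unadjusted p under 0.05, 13 members were higher and 2 lower, against 13.1% and 12.2% of all genes.

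The alpha ring genes had the largest median difference of the roles, 0.47 over 6 genes. In 6 of 6 both ventilated arrays lay above both controls, against 27.8% of all rat genes tested. Psma5 had signals of 580.1 and 521 in ventilated rats, against 319 and 385 in control rats. That is a difference of 0.65 ± 0.15 (SE; adjusted p = 0.0612), the largest of the core and above the spread within either group. Psma7 had 869 and 867 in ventilated rats, against 636 and 564 in control rats, a difference of 0.54 ± 0.12 (adjusted p = 0.0568). Psma4 had 528 and 464.5 in ventilated rats, against 311 and 365 in control rats, a difference of 0.56 (adjusted p = 0.0853). In these 3 genes the lower ventilated array was above the higher control by more than the controls differed from each other. Psma2 had 829 and 761 in ventilated rats, against 587 and 607 in control rats, a difference of 0.41 (adjusted p = 0.0959). Psma6 and Psma1 were also above both controls, with differences of 0.37 (adjusted p = 0.156) and 0.38 (adjusted p = 0.205). For Psma1 the weaker of its 2 probe sets went the other way, with 27.2 and 20.1 in ventilated rats against 34.2 and 35.3 in control rats.

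Among the beta ring genes, 5 of 5 had positive differences (median 0.41) and Psmb3 was the exception to the separation of the groups. Psmb5, which carries the chymotrypsin-like site that proteasome inhibitor drugs block, had 1311 and 1256 in ventilated rats, against 897 and 944 in control rats. Its difference of 0.48 ± 0.10 had the smallest adjusted p of all members, 0.0533. The groups did not overlap, and each group's 2 arrays lay close together. Psmb4 had 1765 and 1690.05 in ventilated rats, against 1172 and 1381 in control rats, a difference of 0.44 ± 0.12 (adjusted p = 0.0844). Psmb1 had 968 and 904 in ventilated rats, against 671 and 741 in control rats, a difference of 0.41 (adjusted p = 0.0997). Psmb2 had 925 and 797 in ventilated rats, against 664 and 676 in control rats, a difference of 0.36 (adjusted p = 0.144). Psmb3, a structural subunit with no proteolytic site, had 461 and 852.5 in ventilated rats, against 529 and 555 in control rats, so its ventilated arrays lay on either side of the controls (difference 0.21, adjusted p = 0.685).

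**Figure D1:**
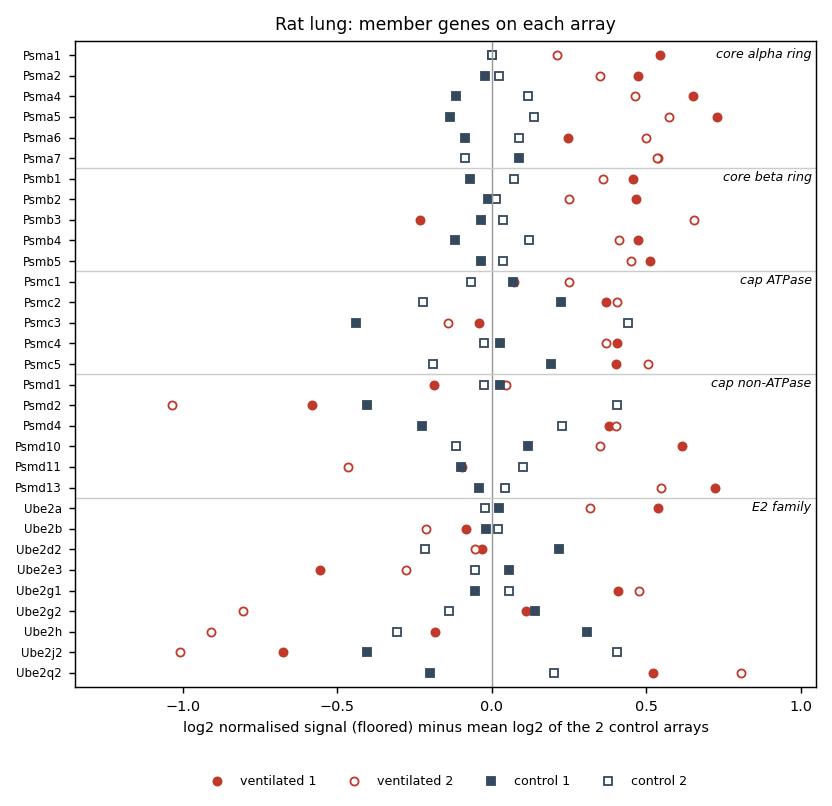
Each row is 1 member gene of the rat array, grouped by role, and the x axis is its log2 normalised signal, raised to the floor, minus the mean log2 signal of the 2 control arrays; red circles are ventilated arrays 1 (filled) and 2 (open), dark squares are control arrays 1 (filled) and 2 (open). The red circles lie to the right of the squares for 10 of 11 core genes and to the left for Psmd2, Ube2b, Ube2e3 and Ube2j2.

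The cap was less uniform than the core. Both ventilated arrays lay above both controls for 7 of its 11 genes, against 27.8% of all rat genes tested, and the median difference was 0.39. Of the 5 ATPases, which unfold the substrate, 4 were above both controls. Psmc4 had 334 and 326 in ventilated rats, against 256 and 247 in control rats, a difference of 0.39 (adjusted p = 0.144), and Psmc5 had 209 and 225 in ventilated rats, against 181 and 139 in control rats, a difference of 0.45 (adjusted p = 0.197). Psmc3 was between its controls, with 373 and 347 in ventilated rats against 282 and 521 in control rats.

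The 6 non-ATPase genes split evenly in sign, with a median difference of 0.16. Psmd13, a subunit of the lid of the cap, had 279 and 247 in ventilated rats, against 164 and 174 in control rats, a difference of 0.63 ± 0.15 (adjusted p = 0.0684). Its groups did not overlap. Psmd4, a receptor for ubiquitin chains, had 460.2 and 467 in ventilated rats, against 303 and 414 in control rats, a difference of 0.39 (adjusted p = 0.234). Psmd2, the large base subunit that docks the shuttle proteins bringing ubiquitinated cargo, had the lowest difference of the proteasome genes, with 197 and 143.5 in ventilated rats against 222 and 390.0 in control rats. Its difference was -0.81 ± 0.30 (adjusted p = 0.159), and the 2 controls differed from each other more than the nearest control and ventilated arrays did. The other negative values of the cap were -0.28 for Psmd11, -0.09 for Psmc3 and -0.07 for Psmd1, none with both ventilated arrays below both controls. Psmd1, the other large base scaffold, gave different answers by probe set: 118 and 119.9 in ventilated rats against 77.8 and 79.8 in control rats on one, and 488 and 574 in ventilated rats against 567 and 546 in control rats on the brightest.

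The gene values rest on 1 probe set each, and further probe sets of the proteasome genes mostly had the same sign. Of the 17 rat proteasome probe sets above the floor that were not used for the gene values, 15 had positive differences, against 48.4% of all such rat probe sets, and 11 had both ventilated arrays above both controls, against 27.4%. Of the 3 such Ube2 probe sets, 2 were positive. The sizes differed between probe sets of 1 gene. Among core genes with further probe sets above the floor, the one used had the largest difference in Psma1, Psma5, Psma7, Psmb2, Psmb4 and Psmb5. In Psma2 and Psmb3 another probe set had a larger one. With probe sets averaged, the difference was 0.33 for Psmb5 (adjusted p = 0.140) and 0.37 for Psma7 (adjusted p = 0.116). Probe sets of 1 gene read the same RNA on the same arrays and are no replicates.

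**Figure D2:**
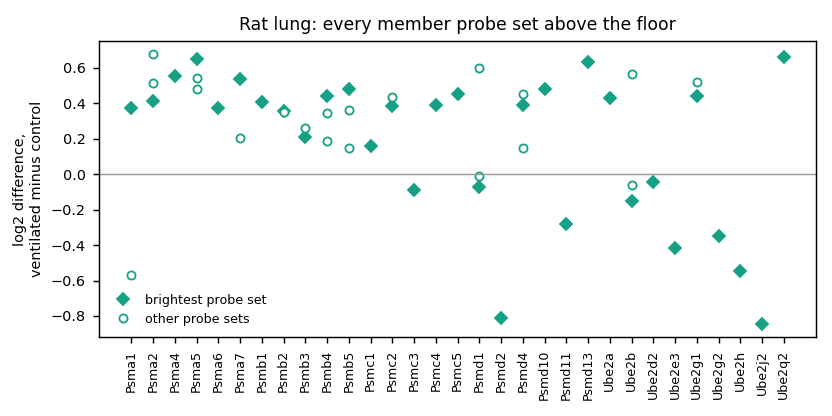
The y axis is the log2 difference, ventilated minus control rats, of every member probe set whose mean signal was above the floor; filled diamonds are the brightest probe set of each gene, used for the gene values, and open circles are the others. Core genes from Psma1 to Psmb5 lie above 0 except for 1 dim Psma1 probe set, and Ube2 genes lie on both sides of 0.

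Most of the 22 rat proteasome genes gave bright signals. With the genes tested divided into 5 groups of equal size by mean signal, 17 of the 22 were in the brightest group, where the median difference over all genes was 0.03 and that of the proteasome genes was 0.39. A further 4 were in the next group, where the median of the proteasome genes was 0.42 and that of all genes was -0.01. Difference and gene length were related over all rat genes: in 5 groups from the shortest to the longest by the span of the mouse gene, the medians of all genes were 0.08, 0.06, 0.03, -0.06 and -0.18 (94.1% of the genes had a span). The proteasome genes had 0.45, 0.39, 0.52, 0.36 and -0.07 in the same groups, which held 5, 9, 4, 3 and 1 of them.

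Genes of the proteasome are known to be switched on together by the transcription factor Nfe2l1, which, like Nfe2l2, binds the antioxidant response element. A permissive form of that element's core, TGANNNNGC with N as any base, was searched on both strands of the mouse promoters of RefSeq. These were of build GRCm38.p6, 250 bases before to 50 after each gene start, and no rat promoters were used here. The motif was in 17 of 30 promoters of the proteasome genes tested in either species (56.7%, from 28 of 34 genes matched by symbol), in 11 of 25 promoters of Ube2 genes (44%, 17 of 24 genes matched), and in 13581 of all 32851 promoters (41.3%). Among the proteasome genes tested in the rat it was in 11 of 21 promoters (52.4%). The 3 promoters below are those of the rat member with the smallest p, of the core gene with the largest difference, and of the proteasome gene with the lowest difference, each 300 bases, 5′ to 3′ on the gene's strand, with matches to the motif in capitals.
Psmb5, chr14:54617946-54618245, minus strand: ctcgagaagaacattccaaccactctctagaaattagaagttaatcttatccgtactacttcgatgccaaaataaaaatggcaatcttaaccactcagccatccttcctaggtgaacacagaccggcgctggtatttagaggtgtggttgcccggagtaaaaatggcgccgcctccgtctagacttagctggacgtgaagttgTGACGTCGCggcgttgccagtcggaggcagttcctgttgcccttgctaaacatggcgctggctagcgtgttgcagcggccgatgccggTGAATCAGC
Psma5, chr3:108256676-108256975, plus strand: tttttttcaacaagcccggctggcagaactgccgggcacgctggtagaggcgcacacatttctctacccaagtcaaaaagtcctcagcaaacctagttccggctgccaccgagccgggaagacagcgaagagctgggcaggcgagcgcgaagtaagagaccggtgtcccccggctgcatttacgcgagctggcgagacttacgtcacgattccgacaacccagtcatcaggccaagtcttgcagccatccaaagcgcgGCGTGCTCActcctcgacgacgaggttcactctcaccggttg
Psmd2, chr16:20651402-20651701, plus strand: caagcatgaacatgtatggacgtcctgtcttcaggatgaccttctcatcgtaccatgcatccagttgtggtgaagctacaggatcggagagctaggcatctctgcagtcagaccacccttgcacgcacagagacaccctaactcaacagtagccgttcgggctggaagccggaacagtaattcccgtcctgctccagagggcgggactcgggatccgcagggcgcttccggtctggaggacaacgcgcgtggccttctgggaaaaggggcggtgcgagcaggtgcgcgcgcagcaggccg
The Psmb5 promoter held 2 matches, the Psma5 promoter 1 match, on the opposite strand, and the Psmd2 promoter 0. A match is a run of letters and not a measured binding site. Nfe2l1 was tested in the mouse alone, with 857 and 734 in ventilated mice against 889 and 681 in control mice (difference 0.03). Nfe2l2 had 267 and 258 in ventilated rats against 174 and 263 in control rats, a difference of 0.30 (adjusted p = 0.458), with overlapping groups.

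None of the rat conjugating enzymes was called. Both ventilated arrays lay above both controls for 3 of 9 and below both for another 3, which is near the shares of all genes, 27.8% and 27.2%. Ube2a, which with its close relative Ube2b is a mammalian counterpart of yeast Rad6, had 348 and 299 in ventilated rats, against 244 and 236 in control rats, a difference of 0.43 (adjusted p = 0.145). Ube2g1 had 104 and 109 in ventilated rats, against 75.3 and 81.1 in control rats, a difference of 0.44 (adjusted p = 0.205). Ube2q2 had 40.04 and 48.8 in ventilated rats, against 24.3 and 32.1 in control rats, a difference of 0.66 ± 0.28 (adjusted p = 0.204), the largest positive value of any member. The groups did not overlap in these 3 genes.

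Ube2j2, a membrane-anchored enzyme of endoplasmic reticulum quality control, had 322 and 256 in ventilated rats, against 389 and 683 in control rats. Its difference of -0.84 ± 0.28 (adjusted p = 0.130) was the lowest of the members, with controls that differed widely from each other. Ube2e3 had 15.6 and 18.9 in ventilated rats, against 23.8 and 22.1 in control rats, a difference of -0.42 (adjusted p = 0.437). Ube2b depended on the probe set: its brightest had 554 and 506 in ventilated rats against 579 and 595 in control rats, and another had 273 and 246 in ventilated rats against 165 and 186 in control rats. Ube2g2, Ube2h and Ube2d2 had differences of -0.35, -0.55 and -0.04, with overlapping groups.

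Around the members, 3 genes of the pathway lists passed the test in the rat. The 2 immunoproteasome genes tested, which replace their constitutive counterparts in immune and cytokine-exposed cells, rose. Psmb8 had 666 and 826 in ventilated rats, against 387 and 454 in control rats, a difference of 0.82 ± 0.16 (adjusted p = 0.0389). Psmb9 had 425 and 432 in ventilated rats, against 245 and 283 in control rats, a difference of 0.70 ± 0.14 (adjusted p = 0.0449). The ligase Huwe1 fell, with 74.3 and 69.2 in ventilated rats against 181 and 169 in control rats, a difference of -1.29 ± 0.18 (adjusted p = 0.0160). Psmb8 and Psmb9 are also interferon-stimulated genes. On that marker list 5 of 7 were above both controls, Psmb8 and Psmb9 among them, against 27.8% of all rat genes. Tap1, of the same list, was below both controls, with 102 and 121 in ventilated rats against 124 and 123 in control rats. The T and NK cell markers were higher on the same arrays. The part of either list in the Psmb8 and Psmb9 values was not tested.

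No other gene of these lists was called. Nae1, part of the activating enzyme of the ubiquitin-like Nedd8, had 106 and 103 in ventilated rats, against 65.9 and 61.4 in control rats (difference 0.71, adjusted p = 0.0853). Vcp, the ATPase that pulls ubiquitinated proteins out of membranes and complexes, had 448 and 429 in ventilated rats, against 571 and 654.5 in control rats (difference -0.48, adjusted p = 0.0878). Psme4, an alternative activator of the core, had 36.0 and 56.2 in ventilated rats, against 70.6 and 74.98 in control rats (difference -0.69, adjusted p = 0.188), and Psme2, a subunit of the interferon-responsive activator, had 251 and 239 in ventilated rats, against 201 and 148 in control rats (difference 0.51, adjusted p = 0.168). By list, both ventilated arrays lay above both controls for 3 of 5 regulators and assembly chaperones, 2 of 3 deubiquitinases, 1 of 3 cullin ligase genes, 2 of 8 other ligases and 0 of 4 genes of shuttling, extraction and transcriptional control, where 27.8% of all genes did. They lay below both controls for 1 of the 5 regulators, 2 of the 8 other ligases and 2 of the 4 shuttling genes, where 27.2% of all genes did, and for 0 of the deubiquitinases and cullin ligase genes.

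In the mouse no member passed the test, and for many proteasome genes the arrays of 1 group differed more from each other than the groups did. At an adjusted p under 0.05, 0 of 53 members were called and 0% of all 6888 genes. At an unadjusted p under 0.05 the count was also 0, against 1.61% of all genes higher and 0.973% lower. The smallest unadjusted p among members was 0.0847, and every adjusted p was at or above 0.9997. The median difference was 0.10 over the 33 proteasome genes and -0.02 over the 20 Ube2 genes, against -0.03 over all genes, and 25 of 33 proteasome genes had a positive difference, against 46.8% of all genes. Both ventilated arrays lay above both controls for 5 of the 33 and below both for 3, against 13% and 14.5% of all genes.

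The 25 positive signs depended on single arrays. Relative to the control mean, the median proteasome gene stood at 0.25 on ventilated array 1 and -0.07 on ventilated array 2, against -0.12 on control array 1 and 0.12 on control array 2. Without ventilated array 1, 13 of 33 proteasome genes had a positive difference and the median was -0.07. Without control array 1, 17 of the 34 proteasome genes then tested had a positive difference and the median was 0.00096. In 13 of the 33 genes (39.4%), ventilated array 1 and control array 2 were both above the other 2 arrays, an order that 20.4% of all mouse genes showed. The Ube2 genes had the order in 1 of 20.

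A control of RNA length divided the mouse arrays in the same way. The signal of the 5′ probe set of Gapdh over that of its 3′ probe set was 0.655 on ventilated array 1 and 0.404 on ventilated array 2, against 0.337 on control array 1 and 0.863 on control array 2. For beta-actin the ratios were 0.556 and 0.453 on the ventilated arrays, against 0.458 and 0.533 on the controls. The 9 bacterial spike-in probe sets had a median of 2.62 times their control mean on ventilated array 1 and 0.960 times on ventilated array 2, against 0.990 and 1.01 times on the controls. The rat table holds no such probe sets. The part of RNA length in the mouse values was not tested. The 2 ventilated mouse arrays may also differ in regimen, which the labels do not tie to an array. For them, regimen and spread between replicate arrays cannot be told apart.

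**Figure D3:**
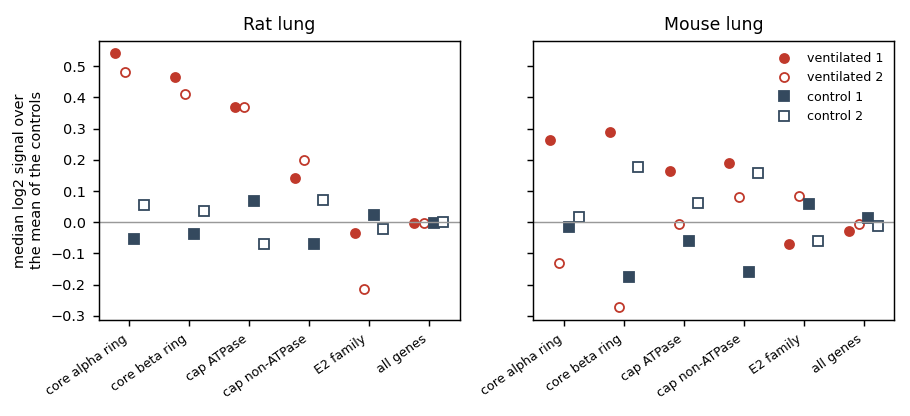
The y axis is the median, over the genes of each role, of log2 signal minus the mean of the 2 control arrays, for rats (left panel) and mice (right panel); red circles are ventilated arrays and dark squares are control arrays. In the rat both ventilated arrays stand above both controls for the 4 proteasome roles, whereas in the mouse ventilated array 1 and control array 2 are the higher arrays of each proteasome role.

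The mouse core genes illustrate this. Psma6 had 1137 and 502 in ventilated mice, against 318 and 1032 in control mice, a difference of 0.40 ± 0.62 with groups that overlapped. Psma5 had 334 and 283 in ventilated mice, against 174 and 278 in control mice, a difference of 0.49 ± 0.33. Psmb6, which carries the caspase-like site, had 479 and 333 in ventilated mice, against 293 and 299.6 in control mice, a difference of 0.43 ± 0.30 (unadjusted p = 0.191). Both ventilated arrays were above both controls for Psma5 and Psmb6, the only 2 of the 14 core genes in that order. Of all mouse genes, 13% had that order and 14.5% had both ventilated arrays below both controls. Psmb1 was the 1 core gene with both ventilated arrays below both controls, with 314 and 406 in ventilated mice against 442 and 605 in control mice. Its difference was -0.54 ± 0.30 (unadjusted p = 0.119), while another of its probe sets had 380.0 and 283 in ventilated mice against 286 and 336 in control mice. Psmb5 likewise had probe sets of opposite sign, with differences of -0.16 and 0.26. For Psmb4 the difference was 0.00 on the brightest probe set and 0.49 on a dim one.

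**Figure D4:**
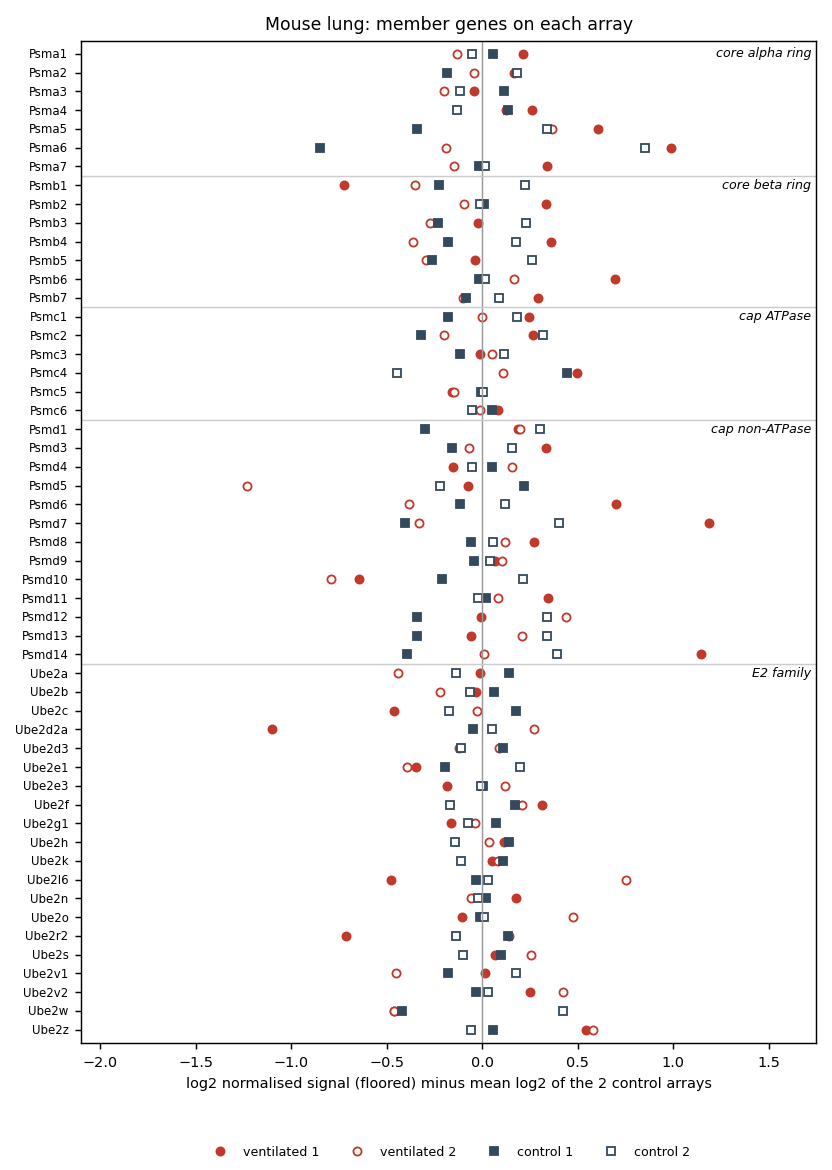
Each row is 1 member gene of the mouse array, grouped by role, on the same axis and with the same symbols as for the rat: log2 normalised signal, raised to the floor, minus the mean log2 signal of the 2 control arrays. Ventilated arrays (red circles) and control arrays (dark squares) are interleaved in most rows, and both circles lie right of both squares for 5 of 33 proteasome genes.

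In the cap of the mouse proteasome the 2 ends of the range lay among the non-ATPase genes. Psmd14, the deubiquitinase that removes the chain before degradation, had 267 and 121 in ventilated mice, against 91.8 and 158 in control mice, a difference of 0.58 ± 0.48 with overlapping groups. Psmd7, its structural partner in the lid, had 633 and 221 in ventilated mice, against 209.7 and 367 in control mice. In both genes ventilated array 1 was the highest and control array 1 the lowest. Psmd10, an assembly chaperone of the cap, had 31.4 and 28.4 in ventilated mice, against 42.3 and 56.85 in control mice, a difference of -0.72 ± 0.39 (unadjusted p = 0.110). Psmd5, another assembly chaperone, had 199 and 89.2 in ventilated mice, against 244 and 180 in control mice, a difference of -0.65 ± 0.45 (unadjusted p = 0.193). The 6 ATPases had differences between -0.15 and 0.30, and Psmc6 was nearly flat, with 1068 and 1001 in ventilated mice against 1047 and 973 in control mice.

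Among the mouse Ube2 genes, 9 of 20 had a positive difference. Ube2z, which takes ubiquitin from the activating enzyme Uba6, had 265 and 271 in ventilated mice, against 189 and 175 in control mice. Its difference of 0.56 ± 0.28 had the smallest unadjusted p of the mouse members, 0.0847, and the groups did not overlap on this probe set, its brightest. On its other probe set they did, with 103 and 64.4 in ventilated mice against 66.7 and 71.7 in control mice (difference 0.24). Ube2v2, a catalytically inactive partner of Ube2n, had 32.3 and 36.5 in ventilated mice, against 26.6 and 27.8 in control mice (difference 0.34). Ube2n itself had 575 and 489.6 in ventilated mice, against 517 and 502 in control mice (difference 0.06). Ube2e1 had 117 and 113 in ventilated mice, against 129 and 170.1 in control mice (difference -0.37). Ube2w, which tags protein amino termini, had the lowest value, -0.46, with signals near or under the floor on most arrays. Ube2d2a, of the broadly acting Ube2d group, had 100.2 and 259.7 in ventilated mice, against 208 and 222.5 in control mice, and Ube2r2 had 600.1 and 1081 in ventilated mice, against 1078 and 895 in control mice. Ube2c and Ube2s, the enzymes of the anaphase-promoting complex, had differences of -0.24 and 0.16.

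The immunoproteasome genes of the mouse had negative differences. Psmb9 had 106 and 184 in ventilated mice, against 206 and 215 in control mice (difference -0.59). Psmb8 had 328 and 352 in ventilated mice, against 391 and 432 in control mice (difference -0.27). Psmb10 had 308 and 363 in ventilated mice, against 391 and 425 in control mice (difference -0.28). Both ventilated arrays were below both controls in all 3, against 14.5% of all mouse genes, and none was called. Of the mouse interferon-stimulated genes tested, Psmb8 and Psmb9 among them, 11 of 11 had negative differences, while 46.8% of all mouse genes had positive ones. Both ventilated arrays lay below both controls for only 3 of the 11, namely Psmb8, Psmb9 and Tap1, and 0 were called. The rat minus mouse difference was 1.10 ± 0.29 for Psmb8 (adjusted p = 0.180) and 1.29 ± 0.40 for Psmb9 (adjusted p = 0.253). None of the other mouse pathway lists held a called gene, and their median differences ran from -0.13 (ubiquitin and ubiquitin-like genes, 5 genes) to 0.20 (enzymes of other modifiers, Ube2f and Ube2l6).

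Fitting both species together, 26 members had the same symbol in both tables, 21 proteasome genes and 5 Ube2 genes, among 2256 shared genes. With species as a block, 0 of the 26 members and 0% of the shared genes were called. At an unadjusted p under 0.05, 2 members were higher and 0 lower, against 3.59% and 4.08% of the shared genes. Psma5 had a joint difference of 0.57 ± 0.19 (unadjusted p = 0.0145, adjusted p = 0.635) and Psma4 of 0.37 ± 0.16 (unadjusted p = 0.0444, adjusted p = 0.635). The difference was positive in both species for 12 of 21 proteasome genes (57.1%), against 23.2% of the shared genes, and for 0 of 5 Ube2 genes. Counted in each species alone, 18 of these 21 proteasome genes were positive in the rat and 15 in the mouse. Agreement between species beyond these separate counts was not tested, and the positive mouse signs depended on single arrays.

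The response itself was not shown to differ between species for any member. In the test of the rat minus mouse difference, 0 of 26 members were called, beside 0.0443% of shared genes called higher and 0.0887% called lower. At an unadjusted p under 0.05, 2 members had a larger difference in the rat than in the mouse and 0 a smaller one, against 6.03% and 6.65% of the shared genes. These were Psmb1, with a difference of 0.94 ± 0.32 (adjusted p = 0.290), and Psmd10, with 1.20 ± 0.44 (adjusted p = 0.315). Of the 21 proteasome genes, 17 had a larger difference in the rat than in the mouse (81%), against 50.9% of the shared genes. Strain, array design, tidal volume and duration all differed between the species. So did the account of the controls, since the labels mention a tracheal cannula for the control rats and none for the control mice. These differences cannot be told apart.

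**Figure D5:**
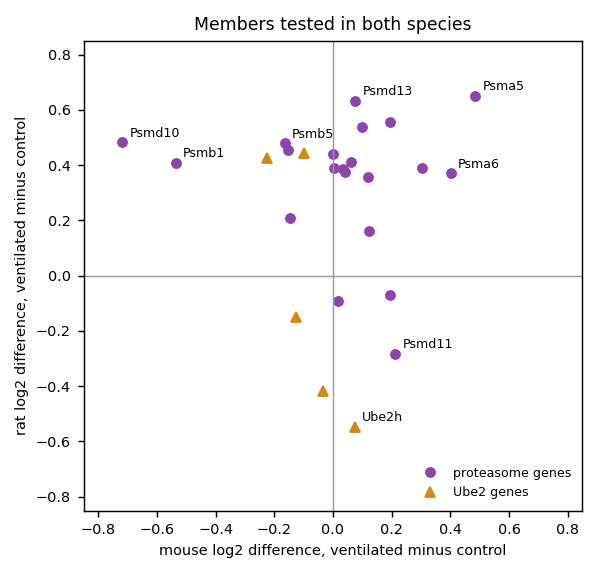
Each point is 1 of the 26 members tested in both species; the y axis is the rat and the x axis the mouse log2 difference, ventilated minus control, with circles for proteasome genes and triangles for Ube2 genes. Of the 21 circles, 18 lie above 0 on the rat axis and 12 lie above 0 on both axes, while Psmb1 and Psmd10 lie high on the rat axis and low on the mouse axis.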

How the data were processed

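Lung RNA was amplified with an oligo-dT primer and hybridised to Affymetrix MG_U74Av2 arrays (mouse) and the same maker's rat array, per the labels' protocols. The deposited values are signal intensities per probe set on a linear scale. Their 2% trimmed means, 150.1 on each mouse array and 149 to 150 on the rat arrays, show that the authors scaled each array to a common mean; the software is not given in the sources used here. Probe sets were named from the arrays' gene tables; in the mouse 10833 of 12422 had 1 symbol, 396 several and 1193 none, in the rat 7006 of 8740, 308 and 1426. The gene values exclude probe sets with several symbols and 66 mouse control probe sets.

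The 4 arrays of a species were quantile-normalised together, raised to the 25th percentile and log2-transformed; genes whose mean signal was not above that percentile were left out, and each gene took its brightest probe set. Signals printed are not raised to the floor. Groups came from the sample titles. Differences were fitted by limma 3.58.1 under R 4.3.3, using lmFit and eBayes with a variance trend, and tested two-sided, with Benjamini-Hochberg adjustment over all genes tested. Species were joined by exact symbol, with species as a block or in an interaction. The p-values measure the spread between these arrays. An exact permutation test of 2 against 2 arrays cannot go below p = 0.333 and was not used. The scripts were tested on simulated data.

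The members and the pathway and marker lists were chosen with earlier results of these data known. Any member could be named; full statistics went to the 5 members with the smallest p and the 2 at either end of the range in each species, and up to 4 genes of each other list could be named by smallest p. Nfe2l1 was named after its value was seen. Alternatives were other scalings, floors, filters, probe-set rules, variance priors and thresholds, a block for replicate number, and leaving out single arrays. Same-numbered arrays did not deviate together (r of deviations -0.28 in the mouse and -0.11 in the rat), so the numbers were not taken to pair samples.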

Additional observations from a re-analysis of the deposited data

Results flagged for a closer look

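Probe sets that match several genes were outside the comparisons, and 3 of them in the rat had both ventilated arrays above both controls. The probe set shared by Psma3l and Psma3, an alpha ring gene, had 678 and 671 in ventilated rats, against 459 and 497 in control rats, a log2 difference of 0.50. One shared by Psmb6l1 and Psmb6, the subunit with the caspase-like site, had 263 and 313 in ventilated rats, against 177 and 252 in control rats, a difference of 0.44, and a second probe set of the same pair of genes had 342 and 380.2 in ventilated rats, against 282 and 377 in control rats (0.15). The probe set shared by Ube2d2 and Ube2d3 had 161 and 162 in ventilated rats, against 126 and 124 in control rats, a difference of 0.37. No test was run on these probe sets, which cannot be assigned to 1 gene. In the mouse, the 3 probe sets shared by Ube2j2 or Ube2l3 with other genes had overlapping groups.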

How the results depend on the processing

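Each group has 2 arrays, which limits every value, and scanning or lot batches could not be fitted because none is given. With all arrays kept, the count of mouse members called was 0 under every alternative run, as were the joint and between-species counts. In these last 2 fits the use of every probe set was not run. Of all mouse genes, 0 were called under the same alternatives, so the mouse member count is no measure of stability. The count of rat members called, 0 as reported, was 1 with the values as deposited, 4 with arrays scaled to a common median (Psmb5, Psma7, Psma5 and Psmd13), 3 with cyclic loess, 2 with a filter at the 50th percentile, 8 at an adjusted p under 0.10, and 0 with any array left out. Scaling to a common median also moved the split of all rat genes called to 155 higher and 102 lower, against 96 and 128 as reported; it was 40 and 21 without the variance trend, 17 and 6 with a floor at the 40th percentile, 23 and 16 with no filter, 69 and 77 with the replicate block, 150 and 185 over every probe set, 80 and 78 with the mean of probe sets, and 0 and 0 with any array left out. With the replicate number as a block, 0 members were called in every fit, and crossing the numbers, added after the data were seen, gave 2 in the rat.

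The rat median over all members was 0.50 with a common median and 0.33 with probe sets averaged; over proteasome genes it was 0.51 and 0.34. The rat Ube2 median, -0.15 as reported, was 0.0021 with a common median, -0.043 with a floor at the 40th percentile or the mean of probe sets and -0.052 over every probe set. Restricting the members to Ube2 genes gave medians of -0.15 in the rat and -0.024 in the mouse. Over every probe set, 28 rat proteasome probe sets were above both controls. With 1 array left out, the rat median ran from 0.31 to 0.40 over members, 0.34 to 0.43 over proteasome genes and -0.26 to -0.033 over Ube2 genes. The mouse medians ran from -0.0060 to 0.092, -0.069 to 0.25 and -0.068 to 0.088. The remaining ventilated arrays lay above the remaining controls for 17 to 19 proteasome genes in the rat and 7 to 19 in the mouse. With all arrays the counts were 17 and 5. Fewer arrays make this order easier to meet, so these counts are no measure of stability. Without ventilated mouse array 1, the mouse medians over members (-0.0060), proteasome genes (-0.069) and Ube2 genes (0.088) changed sign. The mouse Ube2 median was also positive without control array 1 (0.027) and with a common median (0.0092). The cause of these shifts was not tested. Over all members, 17 of 53 in the mouse changed sign without ventilated array 1, 10 without control 1, 9 of 52 without control 2 and 8 without ventilated 2, and up to 6 under the other alternatives; in the rat 4 of 31 changed sign with a common median, 3 with probe sets averaged, and at most 2 with an array left out. Without the assembly chaperones, a comparison made after the data were seen, the proteasome median was 0.39 over 21 rat and 0.11 over 30 mouse genes. The adjusted p of Psmb5 ran from 0.0339 to 0.320 and that of Psma7 from 0.0297 to 0.324.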
